A study of Mus musculus with 4 samples.

Results

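The C/EBP transcription factors described here are 6 genes, Cebpa, Cebpb, Cebpd, Cebpe, Cebpg and Ddit3, chosen by their symbol in the read-count table, out of 23282 features in all. Ddit3 stands in 2 rows with the same counts under 2 Ensembl identifiers and was used once, and the other members have 1 row each. The cells were C2C12 myotubes, the fused muscle cells formed by a mouse myoblast line, and all of them had been deprived of steroids. They received vehicle, whose solvent the labels do not name, or 1 µM dexamethasone, a synthetic ligand of the glucocorticoid receptor, for 2 h. RNA held on the chromatin of isolated nuclei was sequenced from 2 libraries per group, 4 in all, so the results hold for 1 cell line. The labels do not say whether the 2 libraries of a group came from separate cultures, and p-values measure the spread between these libraries alone.

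C/EBP proteins are basic leucine zipper (bZIP) factors. They pair through the zipper, as homodimers or with each other, and grip DNA with the basic region just before it. Cebpb and Cebpd encode activators that answer hormones, cytokines and injury early, and in fat cell precursors they precede Cebpa. Cebpe is a gene of granulocyte development. Cebpg encodes a short member that lacks a strong activation domain and works mainly as a dimer partner. Ddit3 encodes CHOP, a stress-induced member whose altered basic region keeps its dimers from most ordinary C/EBP sites. In muscle, C/EBP beta is known for holding back differentiation of precursor cells and for a part in wasting.

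The family is shown first by the stretch of coding sequence that its members share most, since it says how far sequencing reads can tell these genes apart. It is the window of 90 coding bases of Cebpb with the highest total identity to the best ungapped, in-frame match in each other member. Sequences are from GENCODE M21 transcripts (GRCm38), 5′ to 3′, and capitals mark the 64 positions where Cebpa, Cebpb, Cebpd and Cebpe carry the same base, and in Cebpg and Ddit3 the positions that carry that base too.
Cebpa: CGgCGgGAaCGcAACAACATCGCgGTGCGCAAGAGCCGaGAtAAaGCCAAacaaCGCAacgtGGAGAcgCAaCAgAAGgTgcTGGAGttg
Cebpb: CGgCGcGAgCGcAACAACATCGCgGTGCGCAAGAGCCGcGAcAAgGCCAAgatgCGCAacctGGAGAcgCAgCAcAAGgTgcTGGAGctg
Cebpd: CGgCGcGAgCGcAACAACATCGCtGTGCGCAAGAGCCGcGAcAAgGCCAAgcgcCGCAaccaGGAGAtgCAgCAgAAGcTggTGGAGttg
Cebpe: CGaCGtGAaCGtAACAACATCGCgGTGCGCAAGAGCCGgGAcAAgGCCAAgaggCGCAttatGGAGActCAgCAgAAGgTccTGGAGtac
Cebpg: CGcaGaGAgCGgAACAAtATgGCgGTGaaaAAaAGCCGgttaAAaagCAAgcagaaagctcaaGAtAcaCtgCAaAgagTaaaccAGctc
Ddit3: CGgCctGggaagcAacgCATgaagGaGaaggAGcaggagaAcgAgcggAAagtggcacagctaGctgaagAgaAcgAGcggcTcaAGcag

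Identity to Cebpb over the window was 88.9% for Cebpd, 85.6% for Cebpa, 83.3% for Cebpe, 56.7% for Cebpg and 44.4% for Ddit3. Of the 64 shared bases, Cebpg matched 41 and Ddit3 matched 24. Even so, the longest exact run common to any pair of members' coding sequences was 29 bases, between Cebpa and Cebpb, and Cebpd shared at most 27 bases with another member (Cebpb). A read longer than that, matched without mismatch over coding sequence, thus fits 1 member. The read length is not given in the sources used here.

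Promoter sequence from RefSeq (GRCm38.p6) was matched by symbol for Cebpa, Cebpb, Cebpg and Ddit3, 4 of the 6 members. Those of Cebpb and Cebpa are printed because their groups did not overlap under any scaling tried, with dexamethasone higher, whereas those of Cebpg did under 3 of the 4, and that of Ddit3 because its groups stood apart with dexamethasone lower. Each runs from 250 bases before the annotated start to 30 bases after it, on the strand of the gene, and capitals mark the motif matches named below. They lie at chr2:167688665-167688944, chr7:35119043-35119322 and chr10:127290543-127290822, all on the plus strand of GRCm38, while the submitters' processing notes name mm9 for the counts.
Cebpb: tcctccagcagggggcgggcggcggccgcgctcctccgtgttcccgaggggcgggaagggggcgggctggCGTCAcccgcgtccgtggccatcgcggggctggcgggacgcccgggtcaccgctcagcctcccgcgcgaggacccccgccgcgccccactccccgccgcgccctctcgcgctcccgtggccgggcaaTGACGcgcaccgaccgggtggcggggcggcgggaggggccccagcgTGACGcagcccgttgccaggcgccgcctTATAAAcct
Cebpa: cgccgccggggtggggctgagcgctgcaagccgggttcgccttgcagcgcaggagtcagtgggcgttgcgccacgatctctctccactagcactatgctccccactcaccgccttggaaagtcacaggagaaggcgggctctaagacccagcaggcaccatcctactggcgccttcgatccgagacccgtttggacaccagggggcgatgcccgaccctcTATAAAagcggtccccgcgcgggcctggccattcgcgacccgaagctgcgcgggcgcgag
Ddit3: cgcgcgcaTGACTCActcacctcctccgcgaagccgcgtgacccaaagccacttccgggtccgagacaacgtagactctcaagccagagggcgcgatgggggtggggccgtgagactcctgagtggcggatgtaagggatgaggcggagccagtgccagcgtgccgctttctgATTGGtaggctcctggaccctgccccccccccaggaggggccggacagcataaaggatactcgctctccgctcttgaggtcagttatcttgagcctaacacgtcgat

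Both strands of the 4 windows were searched for 10 motifs, and the share of all 32851 windows of this length with a match stands beside each. The glucocorticoid receptor half-site AGAACA (17.8% of windows) and the full element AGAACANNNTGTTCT (0.00913%) had no match in any of the 4. The C/EBP palindrome TTGCGCAA (0.18%), the C/EBP-ATF element TGATGCAAT (0.189%), the cAMP response element TGACGTCA (1.74%) and the ER stress element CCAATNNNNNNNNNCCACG (0.116%) had none either. Those letters are absent from these windows, which says nothing of sites elsewhere. Cebpb held 3 matches to the cAMP response element half-site TGACG (19.9%), the nearest at -7 to -3 from the start, and the TATA letters TATAAA (13.1%) at 22 to 27 after it. TATAAA also stood in Cebpa, at -30 to -25. Ddit3 held 1 CCAAT box (36.1%) and 1 AP-1 site TGANTCA (7.46%), the latter at -242 to -236, and Cebpg held 2 CCAAT boxes. The TGACG letters are contained in TGACGTCA, and CCAAT in the ER stress element. All 4 windows were rich in G and C, from 62.9% in Ddit3 to 79.6% in Cebpb, against a median of 52.5% over all windows.

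Totals ran from 19631435 counts in vehicle replicate 1 to 88596296 in dexamethasone replicate 2, and the 6 genes together took 2662 and 5270 counts with vehicle and 4457 and 12011 with dexamethasone. Values below are read counts scaled to library size with TMM factors, as CPM, unless said otherwise. Myotube markers were abundant, with 10 of 10 tested and a summed level of 44630 to 128938 CPM over the 4 libraries. Most of that sum was Ttn, at 118127 and 41070 CPM in vehicle replicates 1 and 2 and 113355 and 39943 after dexamethasone. Its range thus lay between replicate numbers, not groups. Ckm split likewise (53.6 and 6.98 CPM in vehicle, 50.6 and 7.72 after dexamethasone). Mymk hardly differed by replicate number (176 and 173, then 208 and 208). Adipocyte markers, listed because C/EBP genes are fat cell genes too, were summed to 0.211 CPM or less in every library, and Cidec was at 0 in all of them. The 6 blood cell markers were summed to 5.72 to 6.97 CPM in vehicle and 5.13 to 7.71 after dexamethasone. Nearly all of it was Cd68 (67, 130, 116 and 273 counts) and Itgam (62, 78, 111 and 195), the 2 that were tested, while Ptprc, Adgre1 and Tyrobp had at most 3 counts in any library. Markers of undifferentiated or dividing myoblasts were summed to 56.6 to 61.3 CPM in vehicle and 42.0 to 49.9 CPM after dexamethasone. Of these, 1 (Pax7) lay lower, at a log2 fold change of -0.80, and the other 5 had positive fold changes; their part in the results was not tested, and in bulk RNA fewer cells of a type and less RNA per cell cannot be told apart. Libraries with the same replicate number were more alike (r = 0.981 and 0.989 across 13285 genes, which are not independent) than those of the same group (0.973 and 0.980), so values within each replicate number are given below.

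The members fell into a high pair, Cebpg and Ddit3, and a low group, Cebpb, Cebpd and Cebpa. Scaled per kilobase of annotated exon, the vehicle level was 33.4 ± 3.15 CPM for Ddit3 (SD, n = 2), 13.7 ± 0.421 for Cebpg, 2.80 ± 0.128 for Cebpb, 0.358 ± 0.0407 for Cebpd and 0.298 ± 0.0394 for Cebpa. The last pair was not separated, since the lower Cebpd library (0.329) and the higher Cebpa library (0.326) all but met, on 23 and 16 counts. After dexamethasone the order was the same, at 25.8 ± 7.41 for Ddit3, 14.4 ± 0.417 for Cebpg, 4.06 ± 0.0254 for Cebpb, 1.63 ± 0.243 for Cebpd and 0.454 ± 0.0384 for Cebpa, and here no library of one gene reached the range of its neighbour in the order. Cebpa, Cebpb and Cebpd have no stretch outside annotated exons, but Cebpg has 4531 and Ddit3 3802 intron bases, and whether introns were counted is not stated. Nor is the strand setting, and genes on the other strand overlap 908 of the 1504 bases of Cebpb (Tmem189) and 1808 of the 3746 of Cebpd (Spidr). Gm45091, also on the other strand, overlaps Cebpa by 313 bases. On the same strand Gm44836 and Gm45094 overlap Cebpg by 1140 and 617 bases. Overlaps with Ddit3 are of 15 (Gm4189) and 68 bases (Mars). Reads in such stretches cannot be assigned with certainty, and these levels carry that limit. Per kilobase of the whole gene, Ddit3 (10.4 ± 0.978) and Cebpg (7.60 ± 0.233) lay closer in vehicle, and after dexamethasone the Ddit3 libraries (9.64 and 6.38) straddled those of Cebpg (8.15 and 7.82).

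**Figure D1:**
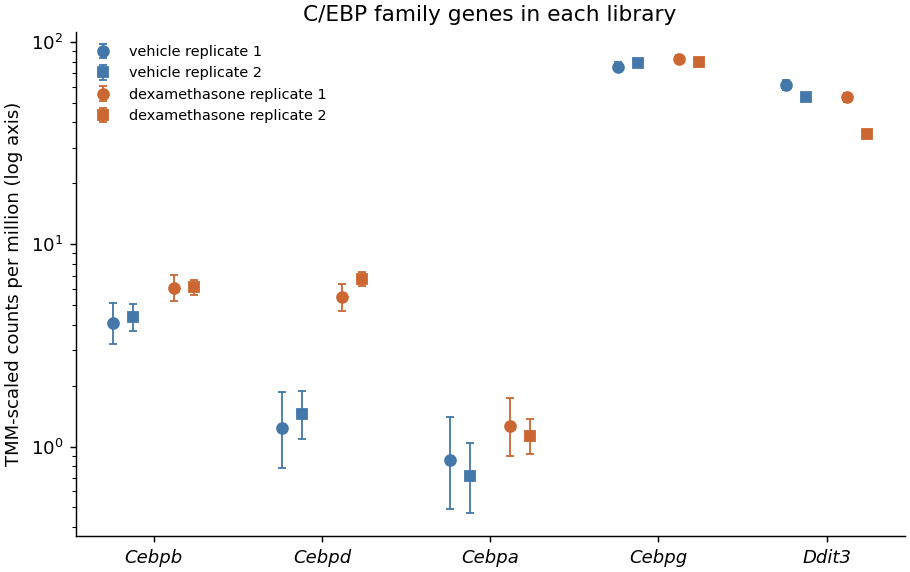
Level of 5 C/EBP genes in each of the 4 libraries (y axis, TMM-scaled CPM, log axis; blue vehicle, orange dexamethasone, circles replicate 1, squares replicate 2; bars are 95% exact Poisson intervals, counting error only). Cebpd stood near 1.23 and 1.45 in vehicle and at 5.47 and 6.76 after dexamethasone, where Cebpb was at 6.07 and 6.13. These values are not corrected for gene length. Per kilobase of exon Cebpd stayed below Cebpb after dexamethasone (means 1.63 and 4.06). Cebpg stayed between 75.5 and 82.7. Cebpe, with 1 count in all, is left out.

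The question put to these genes was whether their transcription differed within 2 h of glucocorticoid. Cebpd showed the largest difference in the family, with about 4.56 times the vehicle level, and Cebpa and Cebpb lay 1.52 and 1.45 times above it. Cebpg was close to its vehicle level (1.05 times), Ddit3 lay below it (0.771 times), and Cebpe was almost without counts. Of the 5 members abundant enough to test, none passed an adjusted p under 0.05 in edgeR's quasi-likelihood test over 13285 genes, where 0.0376% of all genes were called higher and 0% lower. Before adjustment, 1 member (Cebpd) was higher at p under 0.05, where 4.09% of all genes were, and 0 were lower, where 1.69% were. By DESeq2's Wald test and by edgeR's likelihood ratio test 1 member, again Cebpd, was called higher, where 1.78% and 1.83% of all genes were. None was called lower, where 0.399% and 0.339% were. By limma-voom no member was called, and neither was any other gene (0% higher and 0% lower). With 2 libraries a group, an exact permutation test of a single gene cannot go below p = 0.333 (two-sided).

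Among the activators, Cebpd (ENSMUSG00000071637, C/EBP delta) counted 23 and 55 reads with vehicle and 164 and 631 with dexamethasone, which is 1.23, 1.45, 5.47 and 6.76 CPM. Both dexamethasone libraries stood far above both vehicle libraries, and their 95% Poisson intervals, which cover counting error only, did not meet (at most 1.89 CPM in vehicle, at least 4.67 after dexamethasone). Group means were 1.34 ± 0.152 and 6.11 ± 0.910 CPM (SD, n = 2 each), and the fitted log2 fold change was 2.18 (SE 0.271, 95% interval 1.46 to 2.90). The log2 ratio was 2.15 within replicate 1 and 2.22 within replicate 2, and it ran from 2.02 to 2.32 when each library was left out in turn. In size this was among the top 63 of all tested genes, or 0.474%. Its edgeR quasi-likelihood p was 0.000736 unadjusted and 0.134 adjusted. The adjusted p was 2.15e-05 under DESeq2, with 1.78% of all genes called higher, and 7.59e-06 under the likelihood ratio test, with 1.83%, so the tests differed on whether Cebpd passed.

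Cebpb (ENSMUSG00000056501, C/EBP beta), the activator with the highest level per kilobase of the 3, gave 76, 165, 182 and 572 reads, listed as vehicle 1, vehicle 2, dexamethasone 1, dexamethasone 2, or 4.08, 4.35, 6.07 and 6.13 CPM. The libraries of a group sat close together and the groups did not overlap. Its means of 4.21 ± 0.192 and 6.10 ± 0.0382 CPM (SD, n = 2 each) gave a log2 fold change of 0.53 (SE 0.203, 95% interval -0.0045 to 1.07; edgeR unadjusted p = 0.0513, adjusted p = 0.882). Within replicate 1 the log2 ratio was 0.57 and within replicate 2 it was 0.49.

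Cebpa (ENSMUSG00000034957, C/EBP alpha), which drives late fat cell and liver genes, had 16, 27, 38 and 105 counts in the same order of libraries, or 0.858, 0.712, 1.27 and 1.12 CPM. The groups did not overlap here either, but the counting intervals did, reaching 1.39 CPM in vehicle replicate 1 and going down to 0.897 in dexamethasone replicate 1. The log2 fold change was 0.61 (SE 0.353, 95% interval -0.32 to 1.55; edgeR adjusted p = 1.00), with 0.56 and 0.66 within the replicate numbers. Without vehicle replicate 2 it was 0.47 and without vehicle replicate 1 it was 0.74.

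Cebpe (ENSMUSG00000052435), the granulocyte member, had 1 count, in vehicle replicate 2, and 0 in the other libraries. A count of 0 allows up to 3 counts, which is 0.161 CPM for the vehicle library at 0, and 0.10 and 0.0321 CPM for the dexamethasone pair. It did not pass the filter on low counts, and no fold change was computed.

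Of the members known as partners and inhibitors, Cebpg (ENSMUSG00000056216, C/EBP gamma) had 1408, 2993, 2480 and 7416 counts, or 75.5, 78.9, 82.7 and 79.4 CPM. All 4 libraries lay within a narrow band. The means were 77.2 ± 2.36 and 81.1 ± 2.34 CPM (SD, n = 2 each), and the fitted log2 fold change was 0.07 (SE 0.118). The 95% interval of -0.24 to 0.38 covers folds from 0.845 to 1.30, so a difference as large as that of Cebpd lies outside it. The groups just failed to overlap under TMM, yet overlapped when counts were scaled by DESeq2 size factors, upper quartile or library size only.

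Ddit3 (ENSMUSG00000025408 and ENSMUSG00000116429, CHOP) had 1139, 2029, 1593 and 3287 counts, or 61.1, 53.5, 53.1 and 35.2 CPM. Both dexamethasone libraries were the lowest, though dexamethasone replicate 1 was almost at the level of vehicle replicate 2. Means of 57.3 ± 5.39 and 44.2 ± 12.7 CPM (SD, n = 2 each) gave a log2 fold change of -0.38 (SE 0.24, 95% interval -1.01 to 0.26; edgeR adjusted p = 1.00). The size rested on 1 library: it was -0.11 without dexamethasone replicate 2 and -0.70 without dexamethasone replicate 1. Within replicate 1 the log2 ratio was -0.20 and within replicate 2 it was -0.60.

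In all, 4 of the 5 tested members had both dexamethasone libraries above both vehicle libraries (3 when Cebpg is scaled otherwise), where 15% of all tested genes did, and 1 had both below, where 12.9% did. The same 4 lay above vehicle within both replicate numbers, as 34.2% of all genes did, and Ddit3 lay below in both, as 33.9% did. Positive fold changes were found in 4 of the 5, against 49.7% of all genes. Their median log2 fold change was 0.53, against -0.0016 over all tested genes.

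**Figure D2:**
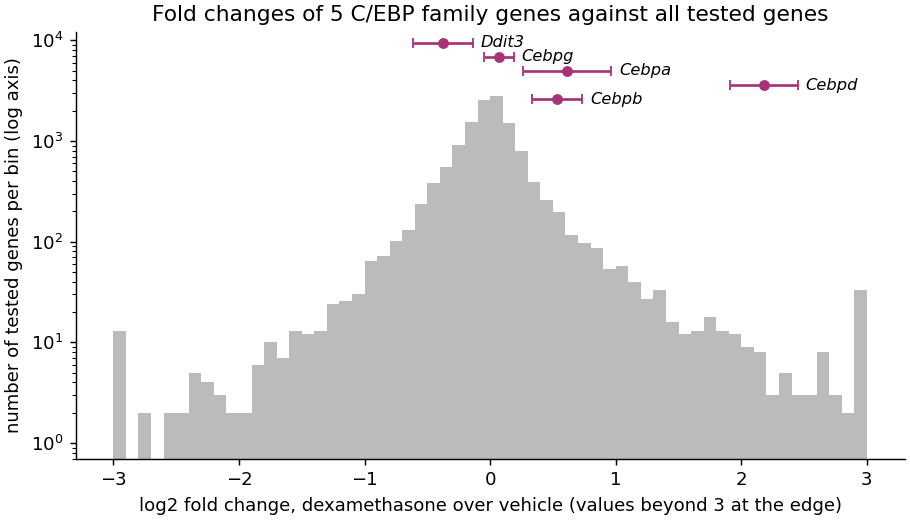
Log2 fold change of dexamethasone over vehicle (x axis) for all 13285 tested genes as a grey histogram (y axis, number of genes per bin, log axis; values beyond 3 are drawn at the edge), with 5 C/EBP genes as points with their SE; the height of a point has no meaning. Cebpd at 2.18 lies in the sparse right tail, Cebpa and Cebpb at 0.61 and 0.53 on its shoulder, and Cebpg at 0.07 in the centre.

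**Figure D3:**
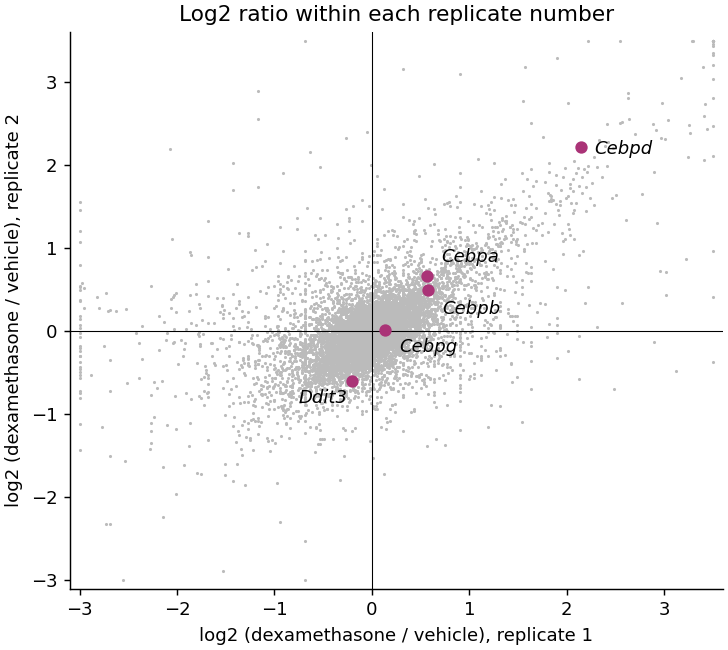
Log2 ratio of dexamethasone to vehicle within replicate 1 (x axis) and within replicate 2 (y axis), each from 1 library per group; grey points are tested genes with counts in all libraries (values outside the axes are drawn at their edge), purple points C/EBP genes. Cebpd (2.15 and 2.22), Cebpa (0.56 and 0.66) and Cebpb (0.57 and 0.49) lie near the diagonal, and Ddit3 (-0.20 and -0.60) does not.

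The share of each member in the family's counts was compared next. Cebpg gave 52.9%, 56.8%, 55.6% and 61.7% of the family's counts, vehicle libraries first, and its groups overlapped. Ddit3 gave 42.8%, 38.5%, 35.7% and 27.4%, with no overlap. These shares rest on counts not corrected for gene length, and so compare libraries, not genes. They are also parts of one whole, so a lower share of Ddit3 by itself makes the other shares higher. Cebpd took 0.864% (95% Wilson interval 0.576% to 1.29%) and 1.04% (0.803% to 1.36%) in vehicle, and 3.68% (3.17% to 4.27%) and 5.25% (4.87% to 5.67%) after dexamethasone. These intervals cover counting error only. The Cebpd shares of the groups did not overlap. Nor did those of Cebpb, at 2.9% and 3.1% in vehicle against 4.1% and 4.8% after dexamethasone. The same held for Cebpa, at 0.60% and 0.51% against 0.85% and 0.87%.

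Set against Cebpb, its closest relative by the coding window, Cebpd had 0.303 and 0.333 counts per Cebpb count in vehicle and 0.901 and 1.1 after dexamethasone. The log2 ratio of the 2 genes thus differed by 1.65 between the group means (within-group SD 0.0986 in vehicle and 0.206 after dexamethasone, n = 2 each), and the exact permutation test of this difference cannot go below 0.333. The ratio of Cebpb to Cebpa hardly differed, at 4.75 and 6.11 in vehicle against 4.79 and 5.45, which overlap. Per Cebpg count there were 0.809 and 0.678 Ddit3 counts in vehicle and 0.642 and 0.443 after dexamethasone, with no overlap.

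**Figure D4:**
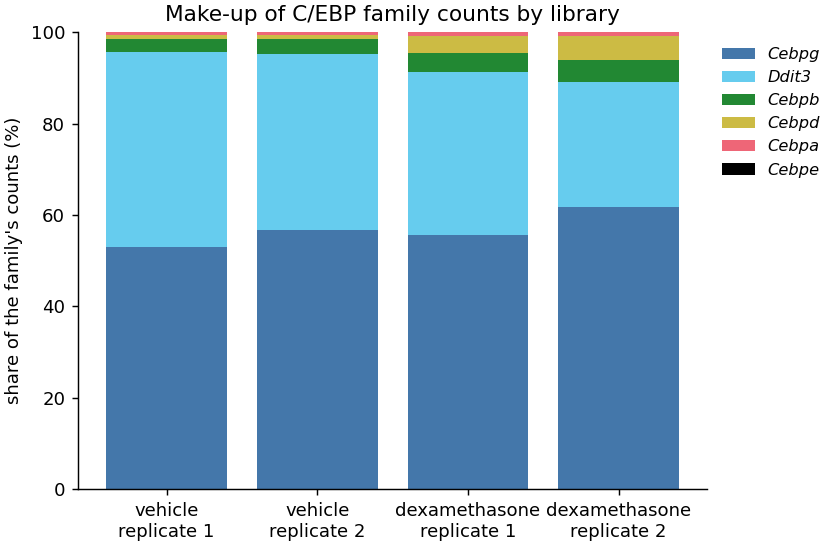
Share of the 6 genes in the family's counts (y axis, percent, not corrected for gene length) in each library (x axis). Cebpg and Ddit3 fill most of each bar; the yellow Cebpd band widens from 0.864% and 1.04% in vehicle to 3.68% and 5.25% after dexamethasone, and Ddit3 is smallest in dexamethasone replicate 2 (27.4%).

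The genes around the family were grouped in 6 lists by role. No gene of any list passed the adjusted threshold in edgeR, and beside each count of genes whose groups do not overlap stand the shares of all tested genes, 15% higher and 12.9% lower. Among 13 bZIP genes listed as partners or relatives of the C/EBPs, 10 were tested, with a median log2 fold change of -0.01. In 2 of them (20%) the groups were apart and higher, and in 0 lower. Nfil3, a repressor that competes for similar DNA sites, was at 49.6 and 43.6 CPM in vehicle and 77.9 and 76.6 after dexamethasone (log2 fold change 0.73, SE 0.134, edgeR unadjusted p = 0.00374, adjusted p = 0.244). Jun was at 27.7 and 29.6 against 31.4 and 34.9 CPM. Atf4, the stress partner of several C/EBPs, had a log2 fold change of 0.04 (SE 0.337).

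Of 24 regulators of C/EBP activity (pseudokinases, kinases, coactivators, a translation regulator) 23 were tested, with a median of -0.03, 6 apart and higher (26.1%) and 3 apart and lower (13%). Smarca2, a chromatin remodelling ATPase, was at 33.4 and 28.5 CPM in vehicle and 48.1 and 40.0 after dexamethasone (log2 fold change 0.51, SE 0.172). Mapk14 (p38 alpha kinase) had a log2 fold change of 0.29 (SE 0.123) and Calr, calreticulin, one of 0.32 (SE 0.156). Celf1, an RNA-binding protein known to act on C/EBP beta translation, was at 522 and 509 CPM against 429 and 421 (log2 fold change -0.28, SE 0.122). Pias4 was at -0.33 (SE 0.190) and Mapk3 at -0.22 (SE 0.206).

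The adipogenic cascade, a list of genes tied to fat cell formation or function, had 12 of 20 genes tested and a median of 0.08. In 3 the groups were apart and higher (25%) and in 1 lower (8.33%). Pparg, the partner of C/EBP alpha in that cascade, had a log2 fold change of -0.18 (SE 0.246), with overlapping groups. Klf15 stood at 5.47 and 8.14 CPM in vehicle and 18.7 and 21.9 after dexamethasone (log2 fold change 1.57, SE 0.257, edgeR adjusted p = 0.209). Lpl, lipoprotein lipase, stood at 9.23 and 7.77 against 3.47 and 3.79 CPM (log2 fold change -1.22, SE 0.214, edgeR adjusted p = 0.230). Dgat2 was at 0.46 (SE 0.262) and Klf5 at 0.10 (SE 0.124).

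The acute-phase and inflammatory targets split in both directions. Of 20 genes 12 were tested, with a median of 0.23, 4 apart and higher (33.3%) and 3 apart and lower (25%). Serpina3n and Orm1 passed the filter on low counts through their dexamethasone libraries alone, so they could enter only as higher. The median and the share apart and higher carry that limit. By edgeR's unadjusted p, 3 were under 0.05 on each side, where 4.09% of all tested genes were higher and 1.69% lower. The 3 on the higher side were Cp, Serpina3n and Orm1. Cp, ceruloplasmin, was at 41.1 and 48.4 CPM in vehicle and 129 and 163 after dexamethasone (log2 fold change 1.71, SE 0.182, edgeR adjusted p = 0.123). Serpina3n, an acute-phase protease inhibitor, had 1 and 0 counts in vehicle and 36 and 149 after dexamethasone. Pooled over each group that is a ratio of 84.9, with a 95% counting interval of 15 to 3370. Orm1, an acute-phase glycoprotein gene with close copies among which reads could be divided, was picked after its values were seen, with 0 and 0 against 17 and 36 counts. Against a floor of 3 counts over the vehicle group it was at least 8.10-fold higher. That bound, a log2 of 3.02, lies above the list median of 0.23, so using it could not move the median. On the other side stood the chemokine gene Cxcl5 (-2.06, SE 0.425), the pattern-recognition gene Ptx3 (-1.18, SE 0.277) and the cyclooxygenase gene Ptgs2 (-0.45, SE 0.152).

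All 30 genes listed for the integrated stress response, the programme in which ATF4 and CHOP act, were tested. Their median was 0.05, with 5 apart and higher (16.7%) and 4 lower (13.3%). Ddit4, also a known glucocorticoid target, stood at 1.72 and 2.87 CPM in vehicle and 7.21 and 7.91 after dexamethasone (log2 fold change 1.70, SE 0.319). Vldlr was at 1.03 (SE 0.214) and the cystine transporter gene Slc7a11 at 0.45 (SE 0.150), while Sesn2 was at -0.35 (SE 0.204), the stress sensor gene Ern1 at -0.23 (SE 0.134) and Tnfrsf10b at -0.19 (SE 0.157). Of 6 muscle genes tied to C/EBP beta, 5 were tested, with a median of -0.0032, 2 apart and higher (Fbxo32 and Trim63, both muscle ubiquitin ligase genes) and 1 lower. The lower one, Pax7, a gene of muscle stem cells, was at 32.0 and 39.0 CPM in vehicle and 17.9 and 22.9 after dexamethasone (log2 fold change -0.80, SE 0.201, edgeR adjusted p = 0.456).

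**Figure D5:**
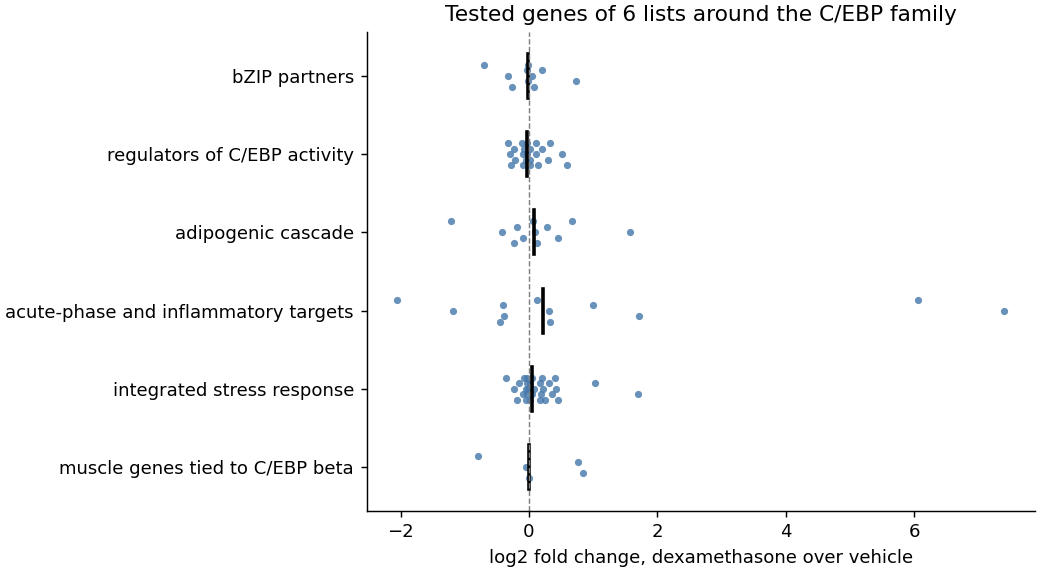
Log2 fold change of dexamethasone over vehicle (x axis) for each tested gene of 6 lists (y axis); black bars are list medians and the dashed line is the median of all tested genes. Medians lie between -0.03 and 0.23, and the 2 points beyond 4 are Serpina3n and Orm1, whose fitted values rest on 1 and 0 vehicle counts.

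Finally, the genes whose pattern over the 4 libraries was most like that of each member were found from the root mean square difference of mean-centred log2 CPM, among at least 11629 genes, over 4 libraries. For Cebpd these were Il6ra (0.119), which encodes a chain of the interleukin 6 receptor, Prkar2b (0.119), a regulatory subunit of protein kinase A, and Gas6 (0.128), a ligand of the TAM receptors. Il6ra, for example, was at 11.9 and 16.5 CPM in vehicle and 62.3 and 77.3 after dexamethasone. Cebpb was nearest to Aox1 (0.0201), Thsd7a (0.0256) and Rras2 (0.0292), and Cebpa to genes that include Gprc5b (0.0220) and Steap2 (0.0285). For Cebpg they were Colgalt1 (0.0068), Sec61a1 (0.0077) and Top3b (0.0119), and for Ddit3 Ezr (0.0486), Ubtf (0.0510) and Fads6 (0.0543). Of the 5 members, Cebpd lay farthest from its nearest genes. The measure is not scaled for the size of a difference, so this ranking depends on that size. Only 0.474% of tested genes had at least as large a log2 fold change as Cebpd.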

How the data were processed

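The authors deposited unnormalized read counts by gene, with a column for each library; the submitters' processing notes name TopHat2 2.0.13, SAMtools 1.1, HTSeq 0.6.1, DESeq2 1.18.1 and mm9. Annotation, strand setting and use of introns are not given in the sources used here. Of 23333 rows, 51 repeat an earlier gene with its counts and were used once. Groups and replicate numbers come from the titles. With filterByExpr (minimum count 10, total 15), 13285 genes were tested with edgeR 4.0.16 (R 4.3.3): TMM, quasi-likelihood test, group as the only term, Benjamini-Hochberg over all genes, threshold 0.05. SE is the fold change over the root of F, and intervals use the moderated degrees of freedom (2 residual, 2.556 prior). The code was tested on simulated counts. Alternatives were 3 scalings, 2 filters, DESeq2 1.42.0, limma-voom (limma 3.58.1), the likelihood ratio test, a replicate block and leaving out each library. Lengths and gene order come from GENCODE M21 (GRCm38), matched on Ensembl identifiers.

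The members and lists were chosen with earlier results of these data known. Named genes are all members, in each list the up to 3 largest differences each way among genes with groups apart and 20 or more counts in both libraries of the higher side, the 3 nearest patterns (1 for Cebpa is not reported here), and up to 2 annotated genes on each side of a member. Single cell type markers, Atf4, Pparg and Orm1 were named outside this rule, after their values were seen.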

Additional observations from a re-analysis of the deposited data

How the results depend on the processing

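The number of genes called, 5 higher and 0 lower, stayed at 5 and 0 with DESeq2 size factors, upper quartile scaling and at least 10 counts in every library, and was 4 and 0 with library size only. It became 23 and 0 with no filter beyond 1 count, 236 and 53 under DESeq2, 0 and 0 under limma-voom (540 and 231 at an unadjusted p under 0.05) and 243 and 45 under the likelihood ratio test. C/EBP members called higher went from 0 to 1 under DESeq2 and under the likelihood ratio test. With the replicate block 913 genes were called higher and 768 lower (6.87% and 5.78%), with 2 members higher (Cebpd, log2 fold change 2.19, adjusted p 0.000421, and Cebpb, 0.53, 0.0409) and 1 lower (Ddit3, -0.41, 0.0450). The labels do not say that a number marks a shared culture or day, and 2 pairs cannot establish it; replicate 1 minus replicate 2 correlated between the groups at r = 0.734 over 13285 genes, which are not independent. Without 1 library (the lone one is assumed to vary like the others), 4 to 63 genes were called higher and 0 to 8 lower, with 0 members called in each. Of 65 alternative fits of single members, 60 kept direction and side of the threshold, 5 became stronger, and none reversed. The fits reuse the same 4 libraries and are not independent. With groups apart, a member could hardly reverse when 1 library was left out. The cause of these shifts was not tested. Depth limits Cebpa and Cebpe most, with 16 and 0 counts in the smallest library.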

Other observations

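The annotated neighbours of the members give a view of the same stretches of chromatin. A530013C23Rik, a noncoding RNA gene that starts 759 bases beyond the end of Cebpb on the same strand, was at 6.65 and 10.1 CPM in vehicle and 13.2 and 13.2 after dexamethasone, a log2 fold change of 0.65 (SE 0.255, edgeR adjusted p = 0.896), beside 0.53 for Cebpb. Tmem189, on the other strand and overlapping Cebpb by 908 bases, was at 0.30 (SE 0.211) with overlapping groups, and had 41.8 to 65.2 CPM against 4.08 to 6.13 for Cebpb.

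Spidr overlaps Cebpd by 1808 bases on the other strand. It had 63.6 and 71.2 CPM in vehicle and 78.0 and 87.5 after dexamethasone, a log2 fold change of 0.30 (SE 0.139, edgeR adjusted p = 1.00). Without knowledge of the strand setting, reads in the overlaps of Cebpd with Spidr and of Cebpb with Tmem189 cannot be told apart. Mzt2, on the other side of Cebpd and 23917 bases away, was at 0.34 (SE 0.192).

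Pepd, 1714 bases from Cebpg, was at 0.17 (SE 0.182), and Mars, which overlaps the end of Ddit3 by 68 bases on the other strand, at 0.08 (SE 0.136), both with overlapping groups. Next to Cebpe, Slc7a8 had 16 to 50 counts per library and a log2 fold change of -0.41 (SE 0.392), and 1700123O20Rik was at -0.00033 (SE 0.229). Slc7a10, near Cebpa, had 5 counts in vehicle replicate 1 and 0 in the other libraries. None of these genes passed the threshold of edgeR's quasi-likelihood test, nor an unadjusted p under 0.05.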
